A study of Homo sapiens with 9 samples.

Results

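Gene expression was compared in SCP51, SCP58 and their parent SW480/EGFP, with 3 arrays for each of these 3 groups of cultured human cells. SW480 is an established colorectal carcinoma cell line, and SW480/EGFP is its EGFP-carrying form. SCP51 and SCP58 were each grown from 1 cell of SW480/EGFP, so each is 1 clone, and after orthotopic implantation in mice they were classed as a high and a low metastatic variant. No treatment separated the groups, and all were grown in the same medium. The genes described here are 9 members of the 3 protein complexes that set the apical and basal sides of an epithelial cell, out of 19775 gene symbols on the array. They are PALS1, PATJ and CRB3 of the Crumbs complex, PARD3, PARD6B and PRKCI of the Par complex, and LLGL2, SCRIB and DLG1 of the Scribble complex. They were chosen by their place in these complexes and with their log2 signals in the 3 groups known, PALS1 heading the set. Their values are therefore a description, and no p-value is given for them. The 9 genes had 29 probe sets annotated to 1 member symbol each, and 23 of these exceeded the array's median signal on 3 or more of the 9 arrays.

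Epithelial cells separate an apical membrane, which faces the lumen, from a basolateral membrane. CRB3 is a small transmembrane protein of the apical side. PALS1 is the scaffold that binds the tail of CRB3 and recruits PATJ, a protein of many PDZ domains found at tight junctions. PARD3 and PARD6B are scaffolds that hold the atypical protein kinase C encoded by PRKCI, and this kinase phosphorylates LLGL2 and keeps it from the apical cortex. LLGL2, SCRIB and DLG1 mark the basolateral side. Loss of this order is a common trait of carcinomas.

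The values are log2 of a linear signal, and array medians lay between 5.36 and 5.47 on this scale. SCP51 replicate 1 stood apart from the other arrays: over all genes it correlated with them at 0.892 to 0.911, and the other 8 correlated with each other at 0.946 to 0.979 (genes are not independent replicates). Several differences that rest on SCP51 are given with and without it, though not all that it moves. The epithelial genes EPCAM, KRT8, KRT18, KRT19 and CDH1 were above the array median on all 9 arrays, as were 8 of 12 listed markers of colonic epithelium in all, while KRT20 and LGALS4 were above it on none. Of 8 fibroblast markers 4 were above it on no array, as were 3 of 4 leukocyte markers, PTPRC among them, and 1 of 4 endothelial markers. COL1A1, CD3E and VWF, 1 of each of these lists, were above it on all 9 arrays. The fibroblast markers DCN and PDGFRA were above it on 8 arrays and PDGFRB on 2. Of the endothelial markers, PECAM1 was above it on 6 arrays and KDR on 2.

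PALS1 separated both single-cell lines from the parent. Its brighter probe set, 226092_at, read 8.59, 8.83 and 8.64 in SCP51 and 8.29, 8.43 and 8.69 in SCP58, against 6.53, 6.80 and 6.65 in SW480/EGFP. On the linear scale these were signals of 385, 456 and 399 in SCP51 and 313, 345 and 414 in SCP58, and of 92.4, 111 and 101 in SW480/EGFP. All 6 arrays of the single-cell lines lay above all 3 of the parent, while the ranges of SCP51 and SCP58 overlapped. In such bulk RNA, fewer cells with a transcript and less of it per cell cannot be told apart.

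The fitted log2 difference of PALS1 was 2.03 ± 0.14 for SCP51 against the parent (SE, n = 3 per group), a 4.08-fold higher signal. For SCP58 against the parent it was 1.81 ± 0.14, a 3.51-fold higher signal. Between SCP51 and SCP58 the difference was 0.22 ± 0.14, within the spread of their arrays. In order of level SCP51 came first, SCP58 second and the parent last, and the first 2 of these did not differ beyond their spread. Without SCP51 replicate 1 the difference between SCP51 and the parent was 2.08.

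The dimmer PALS1 probe set, 219321_at, gave the same order of groups. It read 6.73, 7.48 and 7.26 in SCP51 and 6.45, 7.47 and 7.47 in SCP58, against 4.84, 5.59 and 5.23 in SW480/EGFP. Again all arrays of both lines lay above those of the parent, where this probe set was near or under the array median. The differences from the parent were 1.94 for SCP51 and 1.90 for SCP58. Between SCP51 and SCP58 this probe set differed by 0.03.

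**Figure D1:**
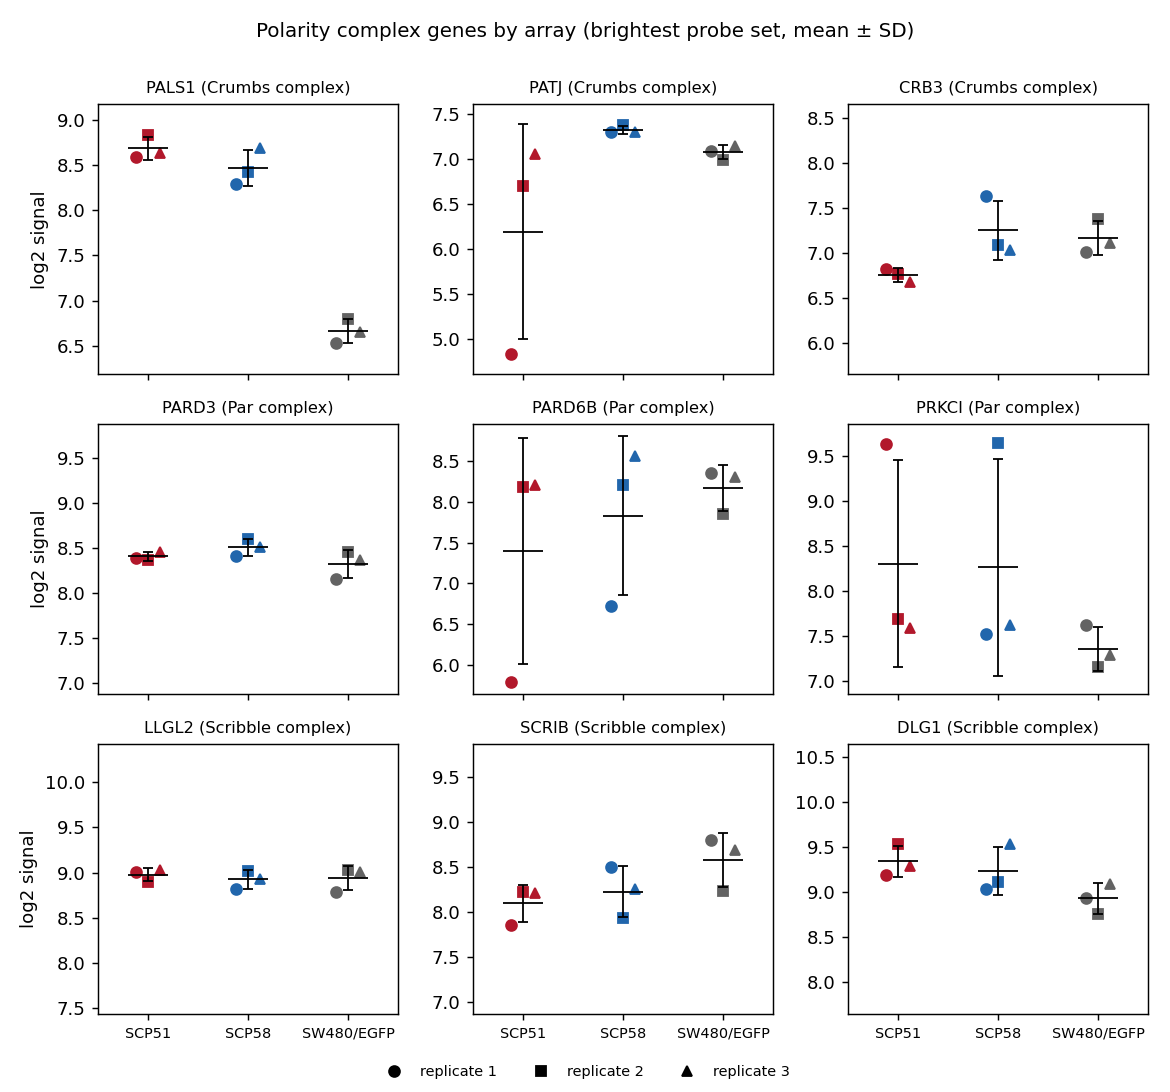
Log2 signal (vertical axis, each panel with its own origin) of the brightest probe set of each of the 9 members on SCP51, SCP58 and SW480/EGFP arrays; symbols are the 3 replicates, horizontal bars the mean and whiskers the SD. PALS1 lies between 8.29 and 8.83 on the 6 arrays of the single-cell lines and between 6.53 and 6.80 on the parent arrays, while PATJ, PARD6B and PRKCI each have single arrays far from the rest of their group.

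PALS1 was the member with the largest difference from the parent in both lines. Among the genes with a positive difference it ranked 34 by size in SCP51 against the parent, where 174 of the 13598 genes tested were at least 2-fold higher. In SCP58 against the parent it ranked 24, with 109 genes at least 2-fold higher. In all, 48 genes were at least 2-fold higher in both lines than in the parent, and 20 were at least 2-fold lower in both. The 2 comparisons share the parent arrays, so the parent's values enter both.

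Calls rest on the two-sided limma test with Benjamini-Hochberg adjustment across the 13598 genes and an adjusted p under 0.05. Of the 9 members 1, PALS1, was called in SCP51 against the parent, where 2.96% of all genes were called (1.38% higher and 1.58% lower). The same 1 member was called in SCP58 against the parent, where 0.14% of all genes were called (0.0662% higher and 0.0735% lower). None was called between SCP51 and SCP58, while 4.08% of all genes were called there (1.48% higher and 2.6% lower). In that comparison 2 of the 9 had an unadjusted limma p under 0.05, and the share of all genes at that threshold was not counted. Since PALS1 heads the set for its levels in these groups, nothing is read from these counts. The split over all genes depended on scaling: it was 201 higher and 354 lower for SCP51 against SCP58 and 187 and 215 for SCP51 against the parent, and 319 and 302, and 247 and 169, after quantile normalization. Without SW480/EGFP replicate 1 no gene was called in SCP58 against the parent and PALS1 lost its call there, although its difference was 1.75.

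PALS1 lies on chromosome 14, and the higher signal did not extend to the genes beside it. Among its 5 nearest measured neighbours on each side, the log2 differences ran from -0.63 to 0.29 in SCP51 against the parent, with a median of -0.14. In SCP58 against the parent they ran from -0.62 to 0.17, with a median of -0.04. The gene directly before PALS1, GPHN, stood at -0.19 in SCP51 and at 0.17 in SCP58, and the gene directly after it, ATP6V1D, at 0.28 in SCP51 and at -0.09 in SCP58. Of the 10 neighbours 1 was called in SCP51 against the parent, PLEK2, which was lower, and none was called in SCP58. The other 437 genes tested on chromosome 14 had median differences of -0.06 in SCP51 and 0.02 in SCP58.

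**Figure D2:**
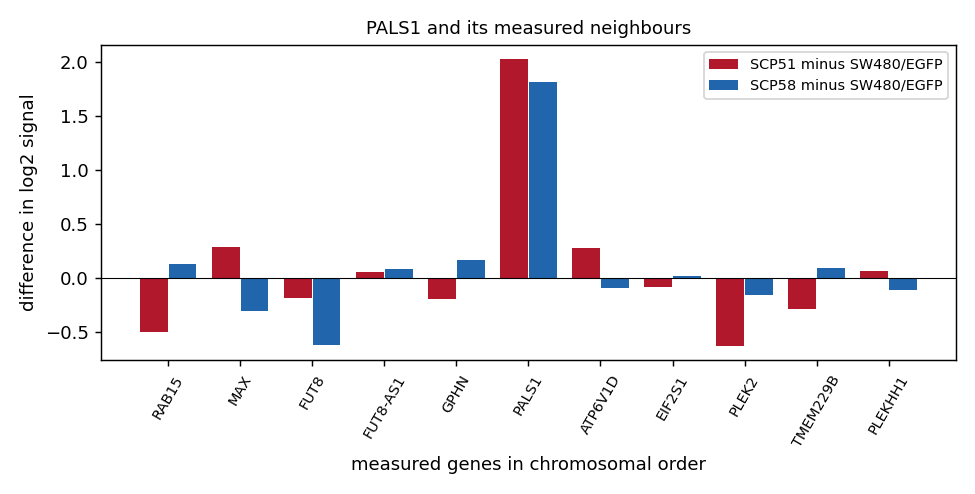
Difference in log2 signal from SW480/EGFP (vertical axis) for PALS1 and the 5 nearest measured genes on each side, in chromosomal order; bars are SCP51 minus SW480/EGFP and SCP58 minus SW480/EGFP. PALS1 stands at 2.03 and 1.81, and none of the 10 neighbours exceeds 0.29 in either line.

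The genes whose log2 signals tracked PALS1 most closely over the 9 arrays were HOXB3, ACAN, CANX, FAS and SKIC3, with Pearson correlations of 0.98, 0.97, 0.968, 0.965 and 0.962. These correlations are descriptions over 9 arrays that fall into 3 groups. HOXB3, a homeobox transcription factor, averaged 8.68 in SCP51 and 8.19 in SCP58, against 6.68 in the parent. CANX, the endoplasmic reticulum chaperone calnexin, averaged 12.06 in SCP51 and 11.91 in SCP58, against 11.29 in the parent. The lowest correlations were those of SSX1, SSX3 and CAPN6, at -0.986, -0.979 and -0.978. These 3 averaged under the array medians in both single-cell lines and above them only in the parent, at 7.09, 6.85 and 6.02. Their correlations therefore rest on values near the dim end in both lines. The probe sets of SSX1, SSX3, ACAN and FAS are of a type that may share probes with other transcripts. CAPN6, of the calpain family, averaged 3.02 in SCP51 and 3.35 in SCP58, against 6.02 in the parent. No other member was among these genes: the highest correlation of a member with PALS1 was 0.759, for DLG1, and the lowest was -0.694, for SCRIB.

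CRB3 and PATJ, which share the Crumbs complex with PALS1, did not show a higher signal of the size seen for PALS1 in either line. CRB3, the membrane protein that PALS1 binds, had 1 probe set, which read 6.82, 6.76 and 6.67 in SCP51 and 7.63, 7.08 and 7.03 in SCP58, against 7.01, 7.38 and 7.10 in SW480/EGFP. The SCP51 arrays lay below all other arrays, and SCP58 overlapped with the parent. The log2 difference of CRB3 was -0.50 ± 0.18 between SCP51 and SCP58 and -0.41 ± 0.18 between SCP51 and the parent, neither of which was called. Without SCP58 replicate 1, the highest of all 9 arrays, the difference between SCP51 and SCP58 was -0.31. Between SCP58 and the parent it was 0.09 ± 0.18.

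PATJ, the PDZ protein recruited by PALS1, was read by 6 probe sets, 2 of which passed the filter on dim signal. The brightest, 223681_s_at, read 4.83, 6.70 and 7.05 in SCP51 and 7.30, 7.37 and 7.30 in SCP58, against 7.09, 6.99 and 7.15 in SW480/EGFP. SCP58 lay above the other groups without overlap, and SCP51 replicate 1 lay far below every other array. The difference between SCP51 and SCP58 was -1.13 ± 0.48, and -0.45 without that array. The difference between SCP51 and the parent was -0.88 ± 0.48, and -0.20 without that array.

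The other PATJ probe set that passed, 214493_s_at, showed a different pattern. It read 7.06, 4.48 and 4.53 in SCP51 and 6.52, 4.42 and 4.41 in SCP58, against 4.07, 6.53 and 4.34 in SW480/EGFP. In each group 1 array was at 6.52 or more and the other 2 were at 4.53 or less. The probe set passed the filter only through these 3 high arrays and lay under the array median on all others. On SCP51 replicate 1 the 2 PATJ probe sets thus moved in opposite directions. The remaining 4 probe sets lay under the array median throughout.

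Promoter windows of the Crumbs complex genes are printed because PALS1 was higher in both lines than in the parent. Neither CRB3 nor PATJ was higher by as much. Repressors of epithelial genes such as ZEB1 and SNAI1 are known to bind E-boxes with the core CACCTG. The sequences are from RefSeq, build GRCh38.p14, run from 250 bases before to 50 bases from the gene's start on the plus strand, and carry in capitals each CACCTG or CAGGTG, which is the same core read on the other strand. PALS1 is at chr14:67241185-67241484, PATJ at chr1:61742230-61742529 and CRB3 at chr19:6464021-6464320.
PALS1: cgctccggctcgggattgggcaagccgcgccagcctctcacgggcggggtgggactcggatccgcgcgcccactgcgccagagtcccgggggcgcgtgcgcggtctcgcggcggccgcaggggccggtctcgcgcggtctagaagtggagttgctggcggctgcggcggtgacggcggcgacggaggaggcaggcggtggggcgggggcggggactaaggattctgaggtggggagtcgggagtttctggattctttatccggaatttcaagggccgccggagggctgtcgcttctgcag
PATJ: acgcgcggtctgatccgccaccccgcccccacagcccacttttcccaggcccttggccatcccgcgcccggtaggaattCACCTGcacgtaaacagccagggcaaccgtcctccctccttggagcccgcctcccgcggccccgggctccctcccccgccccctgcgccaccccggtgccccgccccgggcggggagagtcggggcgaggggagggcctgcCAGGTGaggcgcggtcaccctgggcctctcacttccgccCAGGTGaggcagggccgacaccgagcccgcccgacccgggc
CRB3: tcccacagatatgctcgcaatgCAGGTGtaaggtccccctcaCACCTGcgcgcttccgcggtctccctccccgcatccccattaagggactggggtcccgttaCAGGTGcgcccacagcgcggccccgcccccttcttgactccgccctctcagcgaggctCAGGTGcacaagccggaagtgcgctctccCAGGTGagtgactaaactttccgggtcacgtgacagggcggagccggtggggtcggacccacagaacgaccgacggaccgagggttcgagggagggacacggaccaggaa

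The PALS1 window held 0 such cores, the PATJ window 3 and the CRB3 window 5. Over all 35097 promoter windows of this length, 20.6% held at least 1. The wider motif CANNTG, which includes both cores and reads the same on both strands, occurred 0 times for PALS1, 3 times for PATJ and 6 times for CRB3, and in 68.7% of all windows. The PALS1 window held 40 CG dinucleotides, against a median of 14, and 7.61% of windows held at least as many. Of the other members with a window in this table, PRKCI had 0 cores, and DLG1, with 5 windows at different starts, had 1 core in 1 of them and 0 in the others. A match describes letters in the window and says nothing of whether a factor is bound.

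Of the repressors themselves, ZEB1 read 5.74, 5.89 and 5.87 in SCP51 and 5.90, 5.61 and 5.76 in SCP58, against 5.64, 5.70 and 5.56 in the parent, a little above the array medians. It was not called in any comparison (limma adjusted p = 0.754 for SCP51 against SCP58, 0.359 for SCP51 against the parent and 0.899 for SCP58 against the parent). SNAI1 was not called either, with a log2 difference of -0.22 ± 0.13 between SCP51 and SCP58 (adjusted p = 0.364). ZEB2 and SNAI2 did not pass the filter on dim signal.

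In their brightest probe sets the Par complex genes did not separate the lines in a stable way. PARD3, the scaffold that gives the complex its name, read 8.39, 8.37 and 8.46 in SCP51 and 8.41, 8.60 and 8.51 in SCP58, against 8.15, 8.46 and 8.36 in SW480/EGFP. The 3 groups overlapped in this brightest probe set, and its differences were 0.08 ± 0.12 for SCP51 and 0.18 ± 0.12 for SCP58 against the parent. This probe set, 221526_x_at, is of a type that may share probes with other transcripts, but the 3 other PARD3 probe sets gave differences between SCP58 and the parent of the same sign, from 0.12 to 0.29 over all 4. For SCP51 against SCP58 all 4 differences were negative, from -0.29 to -0.10, and 2 of the 4 probe sets did not overlap. By their brightest probe set 25.1% of all genes did not overlap there. For SCP58 against the parent 1 of the 4, 221280_s_at, did not overlap, beside 17% of all genes.

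PARD6B, the partner that links PARD3 to the kinase, read 5.79, 8.18 and 8.22 in SCP51 and 6.72, 8.21 and 8.56 in SCP58, against 8.36, 7.85 and 8.31 in SW480/EGFP. Replicate 1 of each single-cell line was low, and the other 4 arrays of these lines lay in or near the parent's range. The difference between SCP51 and the parent was -0.78 ± 0.69, and 0.03 without SCP51 replicate 1. Against SCP58, SCP51 differed by -0.435 ± 0.69, and by 0.368 without SCP51 replicate 1. The difference between SCP58 and the parent was -0.34 ± 0.69, and 0.21 without SCP58 replicate 1. The probe set 214827_at was also low on SCP58 replicate 1, at 4.595 beside 6.66 and 6.78 on the other SCP58 arrays, but on SCP51 replicate 1 it read 6.04, between 5.85 and 6.79 on the other SCP51 arrays.

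PRKCI, the atypical protein kinase C of the complex, also had single arrays apart from the rest. Its brightest probe set, 213518_at, read 9.63, 7.69 and 7.60 in SCP51 and 7.52, 9.65 and 7.62 in SCP58, against 7.63, 7.16 and 7.29 in SW480/EGFP. SCP51 replicate 1 and SCP58 replicate 2 were high and the other 7 arrays lay between 7.16 and 7.69. The difference from the parent was 0.95 ± 0.67 for SCP51, and 0.28 without SCP51 replicate 1. For SCP58 it was 0.91 ± 0.67, and 0.21 without SCP58 replicate 2. Against SCP58, SCP51 differed by 0.04 ± 0.67, and by -0.62 without SCP51 replicate 1. The 2 other PRKCI probe sets did not show the high value on SCP58 replicate 2, where 209677_at read 6.03 and 209678_s_at read 6.54. On SCP51 replicate 1, the other high array, 209677_at read 6.85, its highest value over the 9 arrays, and 209678_s_at read 6.21, its lowest in SCP51.

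**Figure D3:**
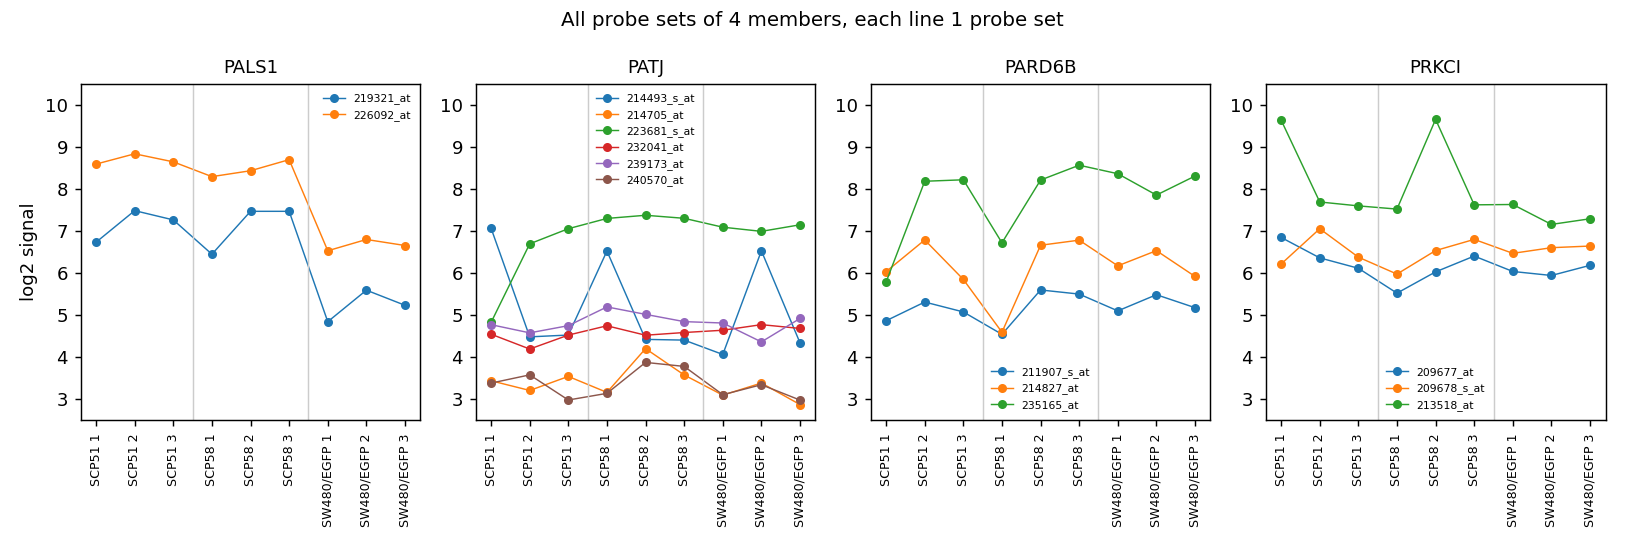
Log2 signal (vertical axis) of every probe set of PALS1, PATJ, PARD6B and PRKCI on the 9 arrays (horizontal axis), 1 line per probe set, with vertical lines between SCP51, SCP58 and SW480/EGFP. The 2 PALS1 probe sets run in parallel and drop on the parent arrays, whereas SCP51 replicate 1 is low in 1 PATJ probe set and high in another, the 2 high PRKCI arrays stand out in 213518_at, and SCP58 replicate 1 is the lowest SCP58 array in all 3 PARD6B probe sets.

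In the brightest probe set of each gene, a spread of at least 2 log2 units within a group was seen for 3 of the 9 members in SCP51 (PATJ, PARD6B and PRKCI), where 4.82% of all genes tested had one. In SCP58 it was seen for 1 member, PRKCI, where 1.24% of all genes had one, and in the parent for none, where 0.831% of all genes had one. Among the dimmer probe sets of members, 214493_s_at of PATJ spanned 2.58 in SCP51, 2.12 in SCP58 and 2.46 in the parent, and 214827_at of PARD6B spanned 2.19 in SCP58. The source of these single-array values was not tested.

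Of the Scribble complex genes LLGL2 differed little between the groups, while SCRIB was lower and DLG1 higher in SCP51 than in the parent. Neither of these was called there. LLGL2, the substrate of the atypical kinase, read 9.01, 8.89 and 9.03 in SCP51 and 8.82, 9.02 and 8.93 in SCP58, against 8.78, 9.03 and 9.01 in SW480/EGFP. The groups overlapped throughout, and the 3 differences were 0.05 ± 0.12 for SCP51 against SCP58, 0.04 ± 0.12 for SCP51 against the parent and -0.01 ± 0.12 for SCP58 against the parent. LLGL2 had the smallest spread of values over the 9 arrays of all members, and its second probe set also overlapped in every comparison.

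SCRIB, the large scaffold of the basolateral side, read 7.86, 8.23 and 8.22 in SCP51 and 8.50, 7.94 and 8.25 in SCP58, against 8.81, 8.24 and 8.69 in SW480/EGFP. The SCP51 arrays lay just below those of the parent, with 8.23 against 8.24 at the closest, and SCP58 overlapped with both. The differences from the parent were -0.48 ± 0.21 in SCP51 and -0.35 ± 0.21 in SCP58. Without SCP51 replicate 1 the difference between SCP51 and the parent was -0.36. SCRIB lies on chromosome 8, whose 473 tested genes had a median difference of -0.26 in SCP51 against the parent and 0.00 in SCP58 against the parent, while all genes had medians of -0.10 and 0.00. Its share in the value of SCRIB was not tested.

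DLG1, a PDZ scaffold of the same complex, was read by 7 probe sets, of which 5 passed the filter. The brightest, 202515_at, read 9.19, 9.54 and 9.29 in SCP51 and 9.04, 9.12 and 9.53 in SCP58, against 8.94, 8.75 and 9.09 in SW480/EGFP. SCP51 lay above the parent without overlap and SCP58 overlapped with both. The difference was 0.41 ± 0.17 for SCP51 and 0.30 ± 0.17 for SCP58 against the parent, or 1.33-fold and 1.23-fold. Of the 7 probe sets 6 were above 0 in SCP51 against the parent, among them 215988_s_at (0.07), which did not pass the filter. In 3 of them the groups did not overlap, beside 28.1% of all genes by their brightest probe set. The largest, 0.70, was that of 230229_at, which read 5.24, 5.08 and 4.82 in the parent, under the array medians. It passed the filter only through 5 arrays of the single-cell lines, where it was high, and nothing is read from it. In SCP58 against the parent 4 of the 7 probe sets were above 0 and 3 below, all with overlap. DLG1 was not called in either comparison.

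**Figure D4:**
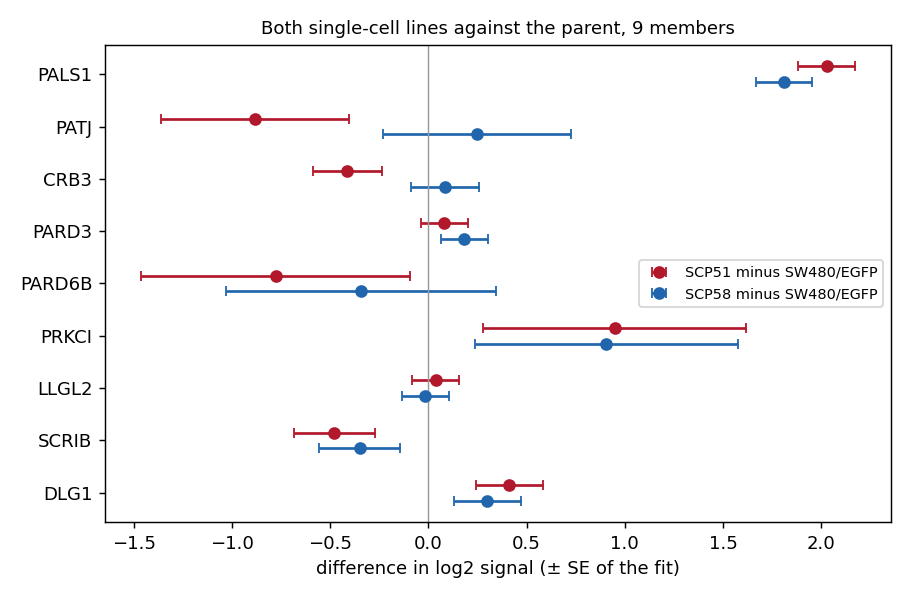
Difference in log2 signal from SW480/EGFP (horizontal axis) for the brightest probe set of each member; points are SCP51 minus SW480/EGFP and SCP58 minus SW480/EGFP and whiskers the SE of the limma fit. PALS1 stands at 2.03 and 1.81, and the other 8 members lie between -0.88 and 0.95.

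Counted over the 9 members, 5 were above 0 and 4 below 0 in SCP51 against the parent, with a median of 0.04, against a median of -0.10 over all genes. In SCP58 against the parent 6 were above 0 and 3 below, with a median of 0.18, against 0 over all genes. In SCP51 against SCP58 4 were above 0 and 5 below, with a median of -0.10, against -0.11 over all genes. Groups did not overlap for 4 members in SCP51 against the parent (PALS1 and DLG1 higher, CRB3 and SCRIB lower), where 28.1% of all genes did not overlap. For SCP58 against the parent these were 2 members (PALS1 and PATJ, both higher), where 17% of all genes did not overlap. For SCP51 against SCP58 they were 2 members (PATJ and CRB3, both lower), where 25.1% of all genes did not overlap.

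Of 103 further genes of the polarity network, which are no members, 81 were tested, 14 did not pass the filter on dim signal and 8 were not analysed here. In SCP51 against SCP58 1 was called higher and 9 lower, with a median difference of -0.13, close to the -0.105 of all genes. These 10 were 12.35% of the 81, beside 4.08% called over all genes. In SCP51 against the parent 4 were called higher and 5 lower, 11.11% of the 81 beside 2.96% over all genes, with a median of -0.11 beside -0.10 over all genes. In SCP58 against the parent none was called by limma, beside 0.14% called over all genes, and the median was 0.08 beside 0 over all genes. There 7 of the 81 had an unadjusted limma p under 0.05, and the share of all genes at that threshold was not counted. The fits without SCP51 replicate 1 gave 14 and 11 calls for SCP51 against SCP58 and against the parent, and those without SCP51 replicate 2 gave 6 and 4. Without SW480/EGFP replicates 1, 2 or 3 the counts were 5, 10 and 5 against SCP58 and 4, 4 and 3 against the parent. Without SCP58 replicates 1, 2 or 3 they were 6, 5 and 5 against SCP58.

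Of the relatives of members named here, PALS2 alone was called. PALS2, a relative of PALS1, read 6.68, 7.02 and 6.85 in SCP51 and 7.47, 7.43 and 7.61 in SCP58, against 7.24, 7.25 and 7.07 in SW480/EGFP. It was lower in SCP51 than in SCP58, at -0.65 ± 0.12 (limma adjusted p = 0.026), whereas PALS1 was at 0.22. That call was lost in 9 of 18 alternatives, among them those without SCP51 replicate 3, parent replicates 1 or 3 or any 1 SCP58 replicate (adjusted p from 0.051 to 0.095). PALS2 was not called in SCP58 against the parent, at 0.32 ± 0.12 (adjusted p = 0.511). PARD6A, PARD6G, PRKCZ and LLGL1, relatives of PARD6B, PRKCI and LLGL2, were not called in any comparison. PARD6G, at -0.82 ± 0.31 in SCP51 against SCP58 (adjusted p = 0.173), was lowest on SCP51 replicate 1, and without that array the difference was -0.41. PARD3B and the CRB3 relatives CRB1 and CRB2 did not pass the filter. LIN7A, which joins the Crumbs complex through PALS1, was higher in SCP51 than in the parent by 0.61 ± 0.13 (adjusted p = 0.0458). Its mean was 5.48 in SCP51 and 4.87 in the parent, at and under the array medians. All SCP58 and parent arrays lay under the lowest array median, 5.36. LIN7A thus passed the filter on dim signal only through the SCP51 arrays, where it was high, and nothing is read from its call. That call was lost in 11 of 18 alternatives. Among these were the fits without any 1 array except SCP58 replicate 2 (adjusted p from 0.0536 to 0.163 where LIN7A was still tested).

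Among transcriptional regulators of epithelial genes, 4 of 10 tested were called in each comparison of SCP51, all lower, and none in SCP58 against the parent. Over all genes 2.6% were called lower against SCP58 and 1.58% against the parent in SCP51, and 0.14% were called in SCP58 against the parent. GRHL2, a transcription factor that activates epithelial junction genes, was lower in SCP51 than in SCP58 by -1.14 ± 0.13 (limma adjusted p = 0.00424) and than in the parent by -1.29 ± 0.13 (adjusted p = 0.00227). It kept both calls in all 18 alternatives. OVOL1, a repressor of mesenchymal genes, stood at -0.76 ± 0.10 against SCP58 (adjusted p = 0.0085, but 0.0566 once its probe sets were averaged) and at -0.65 ± 0.10 against the parent (adjusted p = 0.0143, with the call lost without SCP51 replicate 2 or any 1 parent replicate at 0.054 to 0.0747). The OVOL1 call against the parent was lost in 6 of 18 alternatives in all. ESRP1, an epithelial splicing regulator, stood at -1.19 ± 0.21 against SCP58 and -1.16 ± 0.21 against the parent (adjusted p = 0.0208 and 0.0235). Without SCP51 replicate 1 these ESRP1 differences were -1.415 and -1.383. The first ESRP1 call was lost in 5 of 18 alternatives, among them those without SCP51 replicate 2 or SCP58 replicates 2 or 3 (0.0728 to 0.0779). The second was lost in 7, among them those without SCP51 replicate 2 or any 1 parent replicate (0.0697 to 0.106). TWIST1, which unlike the other 3 is known as an inducer of mesenchymal genes, stood at -0.71 ± 0.14 against SCP58 and -0.91 ± 0.14 against the parent (adjusted p = 0.035 and 0.0144). The first call was lost in 10 of 18 alternatives. Among these were the fits without SCP51 replicate 2, parent replicates 1 or 3 or any 1 SCP58 replicate (0.0507 to 0.112). The second call was lost without SCP51 replicate 2 or parent replicates 1 or 3 (0.0592 to 0.0716). The apical trafficking protein MAL2 was lower in SCP51 by -1.37 ± 0.10 against SCP58 and by -1.47 ± 0.10 against the parent (adjusted p = 0.00162 and 0.000358), and kept both calls in all 18 alternatives. GRHL2, ESRP1 and MAL2 are the 3 genes of the network tested on chromosome 8, whose median was -0.26 in both comparisons of SCP51. The part of the chromosome in these values was not tested. ANXA2, an annexin of the apical domain, was higher in SCP51 than in the parent by 0.24 ± 0.04 (adjusted p = 0.0183), a call lost without SCP51 replicate 2 or any 1 parent replicate (0.0542 to 0.0968).

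Among junction proteins that bind polarity proteins, 1 of 13 was called higher and 2 lower in SCP51 against SCP58, where 1.48% of all genes were called higher and 2.6% lower. CGN, encoding cingulin, was lower by -0.66 ± 0.09 (limma adjusted p = 0.00891), and its call was lost with the mean of its probe sets (0.0708). OCLN, encoding occludin, was lower by -0.90 ± 0.19 (adjusted p = 0.03995), and by -1.02 without SCP51 replicate 1. Leaving out replicate 2 or 3 of either line, or replicate 1 or 3 of SW480/EGFP, ended that call (0.0553 to 0.15). The mean of its probe sets ended it too, and 11 of 18 alternatives did so in all. NECTIN3, an adhesion molecule that binds PARD3, was higher, at 1.67 ± 0.36 against SCP58 and 2.18 ± 0.36 against the parent (adjusted p = 0.0403 and 0.01755). Without SCP51 replicate 1 these differences were 1.99 and 2.49. The first call was lost in 11 of 18 alternatives, among them those without any 1 array except SCP51 replicate 1 and parent replicate 2 (0.0586 to 0.144). The second was lost in 5, among them those without SCP51 replicate 2 or parent replicates 2 or 3 (0.0688 to 0.0716). Both calls were lost with averaged probe sets and with the replicate block. Over the alternatives the lowest NECTIN3 differences were 1.25 against SCP58 and 1.65 against the parent. Among kinases and GTPase regulators TIAM1, a Rac activator that binds PARD3, was higher in SCP51 than in the parent by 1.501 ± 0.22 (adjusted p = 0.01175, and up to 0.0658 among the 2 alternatives that ended the call, averaged probe sets and the replicate block). In SCP58 against the parent TIAM1 stood at 1.36 ± 0.22 and was not called (adjusted p = 0.0736), and between SCP51 and SCP58 it stood at 0.14 ± 0.22. MARK1, of the PAR-1 kinase family, was lower in SCP51 than in SCP58 by -0.45 ± 0.09 (adjusted p = 0.0351). That call was lost in 13 of 18 alternatives, among them those without any 1 array except SCP51 replicate 1 (0.0538 to 0.113).

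**Figure D5:**
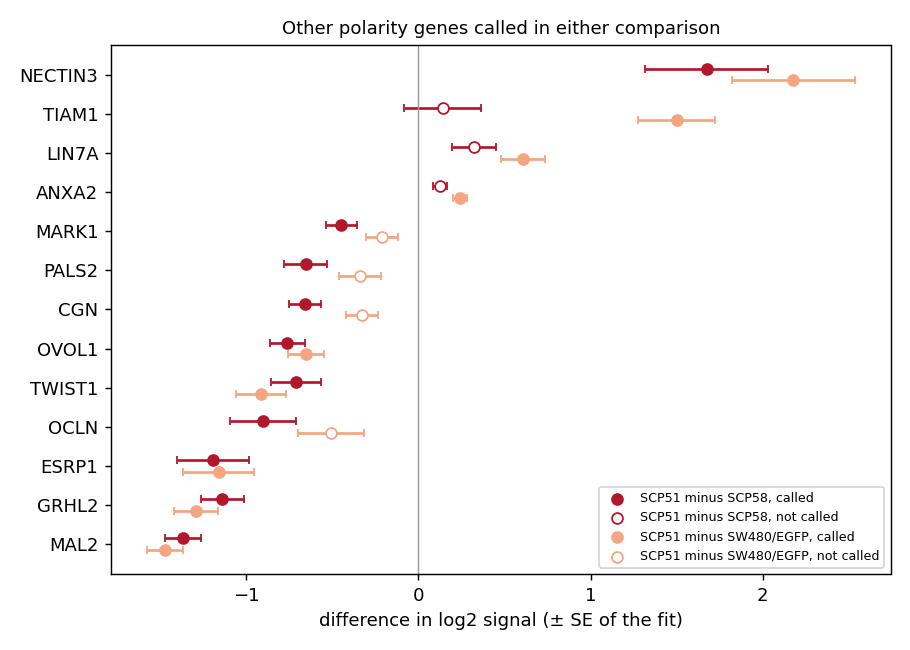
Difference in log2 signal (horizontal axis, whiskers the SE of the limma fit) for the 13 network genes called in SCP51 minus SCP58 or in SCP51 minus SW480/EGFP; filled points are called and open points are not. GRHL2, ESRP1 and MAL2 lie below -1 in both comparisons and NECTIN3 above 1.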

How the data were processed

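Total RNA was labelled with biotin and hybridised to Affymetrix arrays with 54675 probe sets, per the labels' protocols. The deposited intensity of each probe set is on a linear scale and, per the submitters' processing notes, came from GCOS 1.4. The sources used here do not give the scaling target, background method or probe summary. Array medians were 41.2 to 44.3, and the number of arrays limits the precision. The labels name 3 biological replicates per group without saying whether cultures were separate, and the p-values therefore cover only the spread between arrays, which may be technical.

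From the deposited intensities, 514 values below 1 were raised to 1 before taking log2, and arrays were not rescaled. Control probe sets (62) were dropped. Probe sets above the array median on at least 3 of 9 arrays were kept, and the brightest of those with 1 symbol stood for each gene (13598 genes). Symbols were updated through Entrez identifiers in RefSeq (GRCh38.p14; 99.9% matched). Groups were compared by limma 3.58.1 (R 4.3.3), with 1 mean per group over all 9 arrays, moderated variances with an intensity trend and Benjamini-Hochberg adjustment over all genes. The code was tested on simulated data. The alternatives changed the filter, the scaling, the value added before log2, the variance model, the probe set choice, the arrays used and the replicate block. Figures were drawn with matplotlib 3.10.9.

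The members, the gene lists and the alternatives were chosen with earlier results of these data known. Text names all 9 members, some of their relatives, ZEB1, ZEB2, SNAI1 and SNAI2. It also names up to 4 called genes with the smallest adjusted p per network list and comparison. The 5 genes most and 3 least correlated with PALS1 are named too. The neighbours of PALS1, CRB1 and CRB2 were added after values were seen.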

Additional observations from a re-analysis of the deposited data

How the results depend on the processing

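Over 18 alternatives the log2 difference of PALS1 stayed between 1.74 and 2.10 for SCP51 against the parent and between 1.54 and 1.90 for SCP58 against the parent, the lowest in both cases with 32 added before log2. PALS1 kept its call in all 18 for SCP51. These fits reuse the values that were known when PALS1 was chosen, so its calls remain descriptions. For SCP58 the number of members called ran from 0 to 1 over the fits that left out 1 array, 0 without SW480/EGFP replicate 1, and was 2 with array weights, which added SCRIB. Between SCP51 and SCP58 no member was called under any alternative. Between SCP51 and SCP58 the differences of PARD6B, PRKCI, LLGL2 and SCRIB, none of them called, had either sign over the alternatives, PRKCI running from -1.12 with array weights to 0.74 without SCP58 replicate 2.

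Calls among the other network genes (10, 9 and 0 in SCP51 against SCP58, SCP51 against the parent and SCP58 against the parent) were 17, 18 and 10 with array weights. In the first 2 of these comparisons averaging each gene's probe sets gave 5 and 5, fitting just the 6 arrays of a comparison gave 4 and 5, and the replicate block gave 5 and 3, and without a filter there were 6 in the first. Leaving out 1 array gave 5 to 14, 3 to 11 and 0 to 1. Over all genes the counts (555, 402 and 19) were 1527, 1356 and 1351 with array weights, 173, 184 and 37 from just those 6 arrays, and 210, 167 and 6 with the replicate block. Leaving out 1 array gave 137 to 1189, 122 to 724 and 0 to 75. Quantile normalization gave 319 higher and 302 lower calls in SCP51 against SCP58, where the fit on deposited scaling gave 201 and 354, and 247 and 169 against the parent, where it gave 187 and 215. The cause of these changes was not tested. Of 9 same-numbered pairs of arrays 1 had deviations correlated over 0.1 (range -0.22 to 0.133), so the numbers were not taken to pair the samples.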
